A study of Mus musculus with 2 samples.

Results

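Socs1, Socs2, Socs3 and Cish, 4 inhibitors of the suppressor of cytokine signalling (SOCS) family, were followed by name through single-cell gene tables of mouse thymus. They are 4 of the 20451 genes listed, and all 4 were found. Cells came from 7-week-old mice of 2 genotypes. One was wildtype B6, called WT here. The other was Mgl2DTR_eGFP, called Mgl2DTR, mice whose allele name joins the lectin gene Mgl2 with the diphtheria toxin receptor and green fluorescent protein. These mice were given 500 ng of diphtheria toxin, which kills cells bearing its receptor, and the toxin period was 48 hours. The labels do not say whether WT mice were given toxin, how many mice were used, or which promoter elements drive the receptor. Thymus was digested with collagenase D, cells carrying CD90.2 were removed magnetically, and live cells were sorted after staining for CD11c and CD11b, so that dendritic cells (DC) and other myeloid cells were enriched. Both genotypes were tagged with hashtag oligonucleotides and run as 1 pool, so each genotype is 1 set of cells in which mice are not told apart. No difference between the genotypes therefore has a replicate check, and no p-value is given.

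SOCS proteins are switched on by cytokine signals and then dampen them. A cytokine receptor activates Janus kinases (JAKs), these phosphorylate STAT transcription factors, and STATs turn on SOCS genes among their targets. SOCS1 and SOCS3 can inhibit the kinase itself, SOCS2 is best known as a brake on growth hormone signalling and is abundant in mature dendritic cells, and CISH limits STAT5 signalling downstream of common gamma chain cytokines. Each carries an SH2 domain that binds phosphotyrosine and a SOCS box that recruits a ubiquitin ligase.

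The gene models of GENCODE vM21 on GRCm38 place Socs1 (ENSMUSG00000038037.5) at chr16:10782240-10785536 on the minus strand and Socs2 (ENSMUSG00000020027.18) at chr10:95385362-95417180 on the minus strand. Socs3 (ENSMUSG00000053113.3) lies at chr11:117966079-117970047 on the minus strand, and Cish (ENSMUSG00000032578.7) at chr9:107296026-107302784 on the plus strand. The Cish model is overlapped on the other strand by Gm17041, which had 8 unique molecular identifiers (UMIs, counted RNA molecules) in the compared cells against 2057 for Cish. STAT dimers can recognise TTCNNNGAA, a palindrome that reads the same on both strands. The RefSeq promoter windows of Socs3 and Cish are shown because both hold this motif and both genes were among those higher in Mgl2DTR clusters. Each window covers 250 bases before and 50 bases from the start of a RefSeq transcript on GRCm38.p6, and capitals mark the motif. The Cish and Socs3 windows lie wholly inside the gene models given above. Their RefSeq transcripts thus start downstream of the start of the GENCODE model, and sequence before the model start was not examined.
Cish, chr9:107296409-107296708, plus strand: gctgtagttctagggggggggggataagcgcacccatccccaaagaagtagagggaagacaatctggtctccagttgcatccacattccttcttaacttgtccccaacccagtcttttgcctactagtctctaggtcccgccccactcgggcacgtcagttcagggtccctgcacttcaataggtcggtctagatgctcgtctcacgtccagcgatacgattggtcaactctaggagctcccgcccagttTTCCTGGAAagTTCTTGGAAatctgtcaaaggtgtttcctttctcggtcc
Socs3, chr11:117969317-117969616, minus strand: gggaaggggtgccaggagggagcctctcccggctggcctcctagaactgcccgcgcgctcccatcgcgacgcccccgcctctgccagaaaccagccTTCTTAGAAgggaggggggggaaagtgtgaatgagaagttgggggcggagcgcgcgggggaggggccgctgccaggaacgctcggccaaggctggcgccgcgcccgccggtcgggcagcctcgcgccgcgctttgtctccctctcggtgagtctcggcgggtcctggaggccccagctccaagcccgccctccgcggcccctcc
The Cish window held 2 matches, TTCCTGGAA beginning at the transcript start (chr9:107296659-107296667) and TTCTTGGAA 11 bases further on (chr9:107296670-107296678). The Socs3 window held 1 match, TTCTTAGAA, beginning 154 bases before the start (chr11:117969512-117969520). The Socs1 window (chr16:10785487-10785786) held none, and the Socs2 promoter was not examined here. Across all 32851 windows of the table, 8.30% held at least 1 match and 0.457% held at least 2. A match is a run of letters and shows neither binding nor activity.

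The tables held 28926 cells. A single hashtag marked 11586 cells as WT, with a median of 7820 UMIs, and 7433 as Mgl2DTR, with a median of 6930, and only these were compared. A further 9829 cells carried 2 of the 3 hashtags, 1 of which has no stated meaning. Mgl2 itself stood at 109 counts per 1000000 (CPM) over all WT cells and 17.9 over all Mgl2DTR cells. Clustering without Mgl2 and without any SOCS gene gave 47 clusters, of which 28 took a name from marker genes and 19 stayed unnamed. Of WT cells, 4.86% lay in 12 clusters left unnamed because most of their cells were called doublets (2 cells in a droplet), and of Mgl2DTR cells 5.85%. Shares of cell types differed between the genotypes. Type 2 conventional DC-like (cDC2-like) cells were 7.33% of WT and 2.92% of Mgl2DTR cells, and T cell or thymocyte-like cells 19.2% and 6.34%. Neutrophil-like cells were 3.39% and 12.8%, and monocyte-like cells 3.77% and 9.63%.

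The 4 members peaked in different cell types. In WT cells the highest class was activated DC-like for Socs2, NK or ILC-like (natural killer or innate lymphoid) for Socs1, monocyte-like for Socs3 and cDC2-like for Cish. The same classes held the highest levels in Mgl2DTR cells for Socs1, Socs2 and Socs3, whereas Cish was then highest in NK or ILC-like cells. The highest WT class for Socs1 was T cell or thymocyte-like under 4 of 8 other processing choices, and that for Cish was neutrophil-like under 2 of 8 and NK or ILC-like under 2, while those for Socs2 and Socs3 stayed the same under all 8. This order is over 10 classes and leaves out the endothelium or mesenchyme-like cells, of which there were 7 in WT and 11 in Mgl2DTR. Those few cells were rich in Socs3. They held 0.596% of its WT UMIs in 0.0604% of WT cells, and 2.08% of its Mgl2DTR UMIs in 0.148% of Mgl2DTR cells. Levels are given as CPM of summed UMIs with exact Poisson 95% intervals. In a 3′ assay a transcript is counted once whatever its length, so levels of different genes on the CPM scale are not set by length, and intervals cover counting error only.

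**Figure D1:**
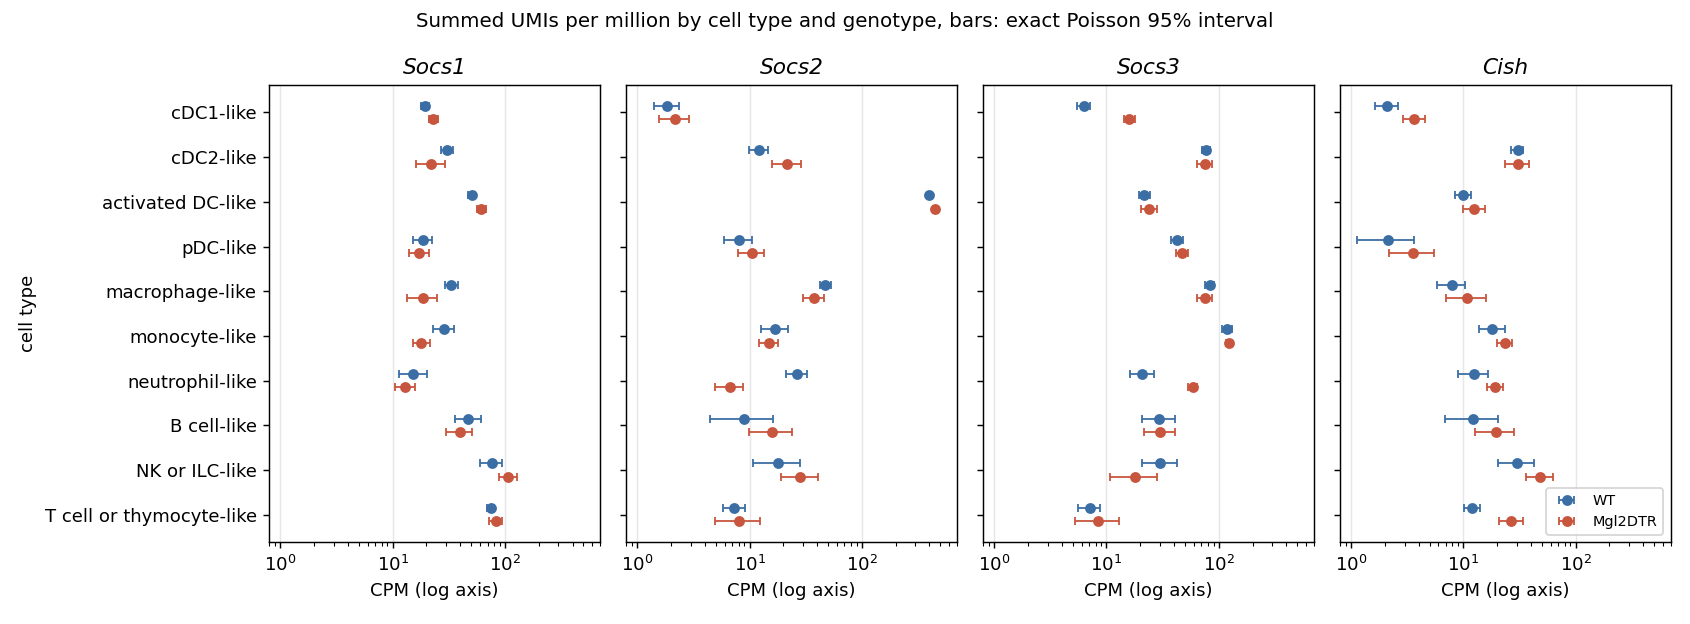
Levels of Socs1, Socs2, Socs3 and Cish in 10 named cell types, in CPM of summed UMIs on a log axis, with WT in blue and Mgl2DTR in red and bars for exact Poisson 95% intervals. Socs2 stands at 393 and 450 CPM in activated DC-like cells against 1.84 and 2.15 CPM in cDC1-like cells, while Socs3 is highest in monocyte-like cells at 119 and 123 CPM.

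Socs2 was the member most concentrated in 1 cell type. Activated DC-like cells, which carry the migration receptor Ccr7 and the actin bundler Fscn1, had a Socs2 level of 393 CPM (interval 383 to 403) in WT and 450 (433 to 467) in Mgl2DTR. They were 14.2% of WT cells and held 61.4% of all WT Socs2 UMIs; in Mgl2DTR they were 12.1% of cells and held 68.1%. After each cell was thinned to 2000 UMIs, which left out shallower cells, 51.6% of 1422 WT and 53.3% of 741 Mgl2DTR activated DC-like cells had a Socs2 UMI, against 0.458% and 0.686% of cDC1-like cells. Without thinning these shares were 73.5% and 71.7% in activated DC-like and 2.80% and 3.09% in cDC1-like cells, whose median depth was higher (15002 UMIs against 7389 in WT). In all other named classes Socs2 was at or below 47.4 CPM in WT, the value of macrophage-like cells.

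The activated DC-like clusters were not alike in Socs2. Cluster 8, led by the chemokine genes Ccl17 and Ccl22, had 581 CPM in WT and 722 in Mgl2DTR. Cluster 5, led by Ccl5 and Il12b, had 574 and 627 CPM, and its WT interval of 549 to 600 overlapped that of cluster 8, 559 to 603. Cluster 4, led by Il12b and Cxcl9, had 160 and 141 CPM, and 24.6% of its cells were called doublets. Socs2 was also high in cluster 14, an unnamed cluster of activated DC genes with T cell transcripts, at 419 and 464 CPM. In cluster 8 Socs2 was among the 10 genes that most set the cluster apart by fold, although it was kept out of the clustering. In these 4 clusters the Mgl2DTR to WT ratio of Socs2 ran from 0.882 to 1.24, short of the 1.5-fold size rule in each.

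Socs1 was found in every class, from 15.3 to 76.1 CPM in WT. NK or ILC-like cells had 76.1 CPM (60.4 to 94.6) in WT and T cell or thymocyte-like cells 74.8 CPM (70.0 to 79.9), with overlapping intervals. In WT cells of NK or ILC-like cluster 21, where Socs1 was 96.7 CPM, the 10 T cell markers summed to 2614 CPM. They summed to 664 CPM in the other such cluster, 27, and to 5371 CPM in T cell cluster 1. Their part in the Socs1 and Cish levels of NK or ILC-like cells was not tested. Activated DC-like cells followed at 50.7 CPM and B cell-like cells at 47.3 CPM, which also overlapped, and neutrophil-like cells were lowest at 15.3 CPM. Within the T lineage the highest cluster was 23, cortical thymocytes with Rag1 and Themis, at 180 CPM (151 to 213) in WT; only 18 Mgl2DTR cells fell there, against 406 WT cells. Cluster 35, T lineage cells with Dntt, had 99.9 CPM, and cluster 1, T cells with S1pr1 and without Rag1 among their leading genes, 85.1 CPM in WT and 90.8 in Mgl2DTR. After thinning, 27.3% of WT cells of cluster 23 had a Socs1 UMI and 14.7% of those of cluster 1.

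Socs3 was a gene of monocytes, macrophages and cDC2 in these data. Monocyte-like cells had 119 CPM (108 to 132) in WT and 123 (115 to 131) in Mgl2DTR, macrophage-like cells 82.9 and 74.7 CPM, and cDC2-like cells 76.8 and 75.5 CPM. The last 2 classes overlapped in their WT intervals, 76.0 to 90.2 and 71.0 to 82.8. Plasmacytoid DC-like (pDC-like) cells had 42.2 and 46.8 CPM. Among clusters of at least 50 WT cells the highest level was in cluster 10, mature neutrophil-like cells with Cxcl2, Il1b and Cxcr2, at 211 CPM (157 to 277), although the neutrophil-like class as a whole stood at 20.9 CPM. Its other large cluster, 16, immature cells rich in the granule genes Ltf, Ngp and Camp, had 7.61 CPM. The lowest WT classes were type 1 conventional DC-like (cDC1-like) cells at 6.32 CPM and T cell or thymocyte-like cells at 7.07 CPM, which overlapped. After thinning, a Socs3 UMI was found in 1.19% of WT cDC1-like and 1.44% of WT T cell or thymocyte-like cells. Background RNA was not measured, so shares this low show neither presence nor absence of Socs3 expression.

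Cish was the least abundant member. It stood at 9.46 CPM over all WT cells and 13.3 CPM over all Mgl2DTR cells. cDC2-like cells had 30.4 CPM (26.8 to 34.3) in WT and 30.4 in Mgl2DTR, and the cDC2-like cells with Mmp12 and Epcam (cluster 15) carried 47.8 and 45.7 CPM against 10.4 and 9.74 CPM in the Cd209d-bearing cluster 18. NK or ILC-like cells, at 30.1 CPM (20.6 to 42.4) in WT and 48.1 in Mgl2DTR, did not differ from cDC2-like cells beyond the WT intervals. As for Socs3, the top WT cluster was the mature neutrophil-like cluster 10, with an interval of 60.2 to 143 CPM from 23 UMIs. The 6 basophil or mast cell markers in cluster 10 summed to 665 CPM in WT. Their part in its Cish and Socs3 levels was not tested. cDC1-like and pDC-like cells were lowest, with 2.07 and 2.12 CPM in WT.

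Summed over all cells, Socs1 and Socs2 were lower and Socs3 and Cish higher in Mgl2DTR. Socs1 was 37.3 CPM in WT and 29.3 in Mgl2DTR, a ratio of 0.785 (exact interval 0.745 to 0.827). Socs2 was 80.8 and 58.3 CPM, a ratio of 0.722 (0.696 to 0.749). When the 25 clusters with at least 50 cells of each genotype were given the WT make-up, the ratio was 0.991 for Socs1 and 1.11 for Socs2. Socs3 had a ratio of 1.54 over all cells and 1.17 at the WT make-up, and Cish 1.41 and 1.28. Those clusters held 86.9% of WT and 91.0% of Mgl2DTR cells. Fewer cells of a type and less RNA per cell cannot be told apart in the sums over all cells.

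**Figure D2:**
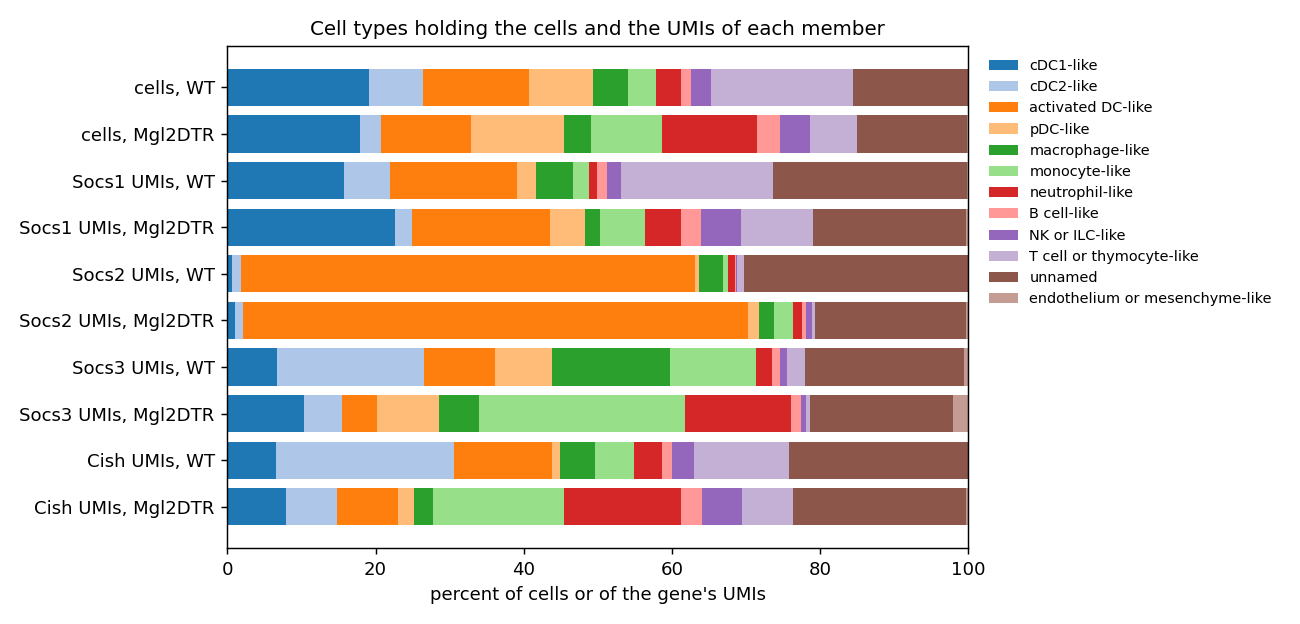
Percent of cells, and percent of the UMIs of each member, that lay in each cell type, as stacked bars for WT and Mgl2DTR. Activated DC-like cells hold 61.4% and 68.1% of the Socs2 UMIs, and monocyte-like cells hold 11.6% of the Socs3 UMIs in WT and 27.7% in Mgl2DTR.

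Inside clusters, the calls for Socs3 and Cish were higher in Mgl2DTR and those for Socs1 lower, a split that other processing choices did not keep in full. A call needed a ratio of at least 1.5 either way, an exact 95% interval on that side of 1 and at least 50 summed UMIs. Socs3 was higher in 7 of 19 measured clusters and lower in 0, where 4.6% of all measured gene and cluster pairs were higher and 4.27% lower. These pooled shares hide a wide range by cluster. From 1.38% to 18.7% of the genes measured in a cluster were higher, and from 0.932% to 14.6% lower. Cish was higher in 4 of 15 and lower in 0. Socs1 was higher in 0 of 21 and lower in 5. Socs3 in activated DC-like cluster 8 had a ratio of 0.691 (0.440 to 1.05) and was called lower under 4 alternatives, and Socs1 was called higher in cluster 0 after thinning. Socs2 was higher in 1 of 15 and lower in 3. The median ratio over measured clusters was 0.925 for Socs1, 1.04 for Socs2, 1.19 for Socs3 and 1.38 for Cish. With only cells of at least 2000 UMIs, thinned to that number, 0 of 5 clusters that could be measured were called for Socs3 and 0 of 1 for Cish. None of the 7 clusters called for Socs3 could be measured at that depth. The 1 Cish cluster, cluster 1, had a ratio of 1.67 but lost its call.

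**Figure D3:**
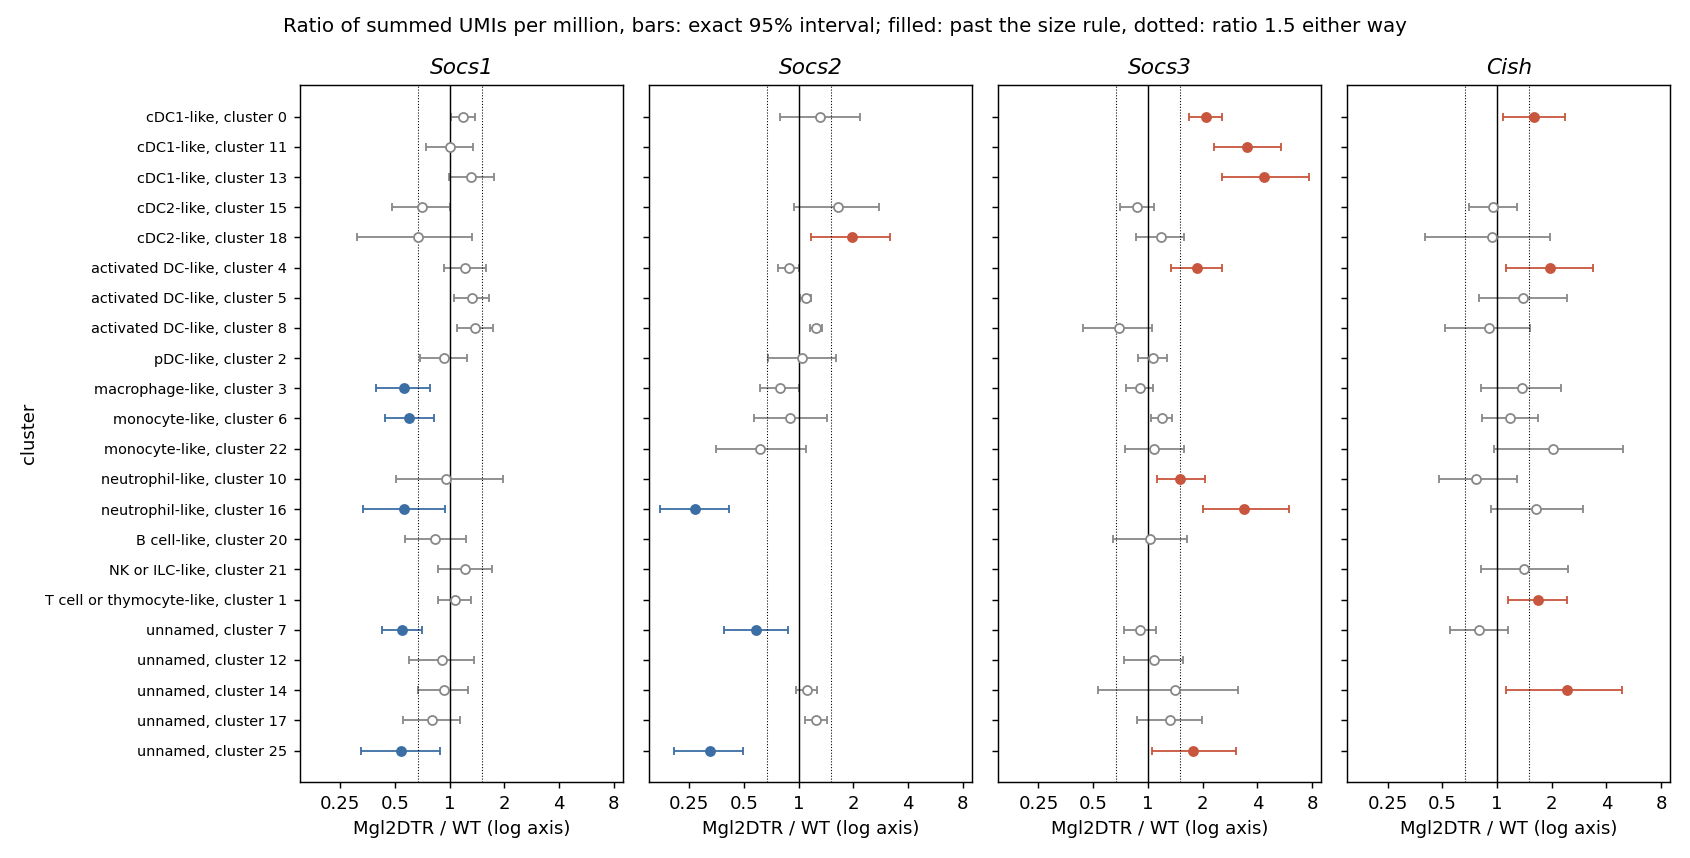
Mgl2DTR to WT ratio of each member in each cluster where it had at least 50 UMIs, on a log axis, with exact 95% intervals. Filled points pass the size rule, red for higher and blue for lower; Socs3 is red in all 3 cDC1-like clusters, at 2.09, 3.51 and 4.33.

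In cDC1-like cells, the DC of the Xcr1 and Clec9a lineage, Socs3 was higher in all 3 clusters. In resting cDC1-like cells (cluster 0) it was 8.05 CPM in WT and 16.8 in Mgl2DTR, a ratio of 2.09 (1.69 to 2.57). In the cycling cDC1-like cluster 11, led by histone genes, it was 4.07 and 14.3 CPM, a ratio of 3.51 (2.30 to 5.42). In the cycling cluster 13, led by mitotic genes such as Ccnb1, it was 3.52 and 15.3 CPM, a ratio of 4.33 (2.54 to 7.66). All 3 intervals lay above 1.5, and only 1.49%, 1.56% and 1.86% of the genes measured in clusters 0, 11 and 13 were called higher. Median depth was close in the 2 genotypes, at 13982 and 13887 UMIs in cluster 0. Thinned shares over the class were 1.19% (0.779 to 1.74) in WT and 2.52% (1.74 to 3.51) in Mgl2DTR, against 1.44% and 0.504% in T cell or thymocyte-like cells. By cluster they were 1.59% and 1.93% in cluster 0, 0.508% and 4.15% in cluster 11 and 0.290% and 3.29% in cluster 13. Only 26 WT and 33 Mgl2DTR cells of the class held a Socs3 UMI at this depth. These are too few for the shares in cluster 0 to show or exclude the difference seen in CPM. The CPM ratio of Socs3 in T cell or thymocyte-like cells was 1.20 (0.707 to 1.96).

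Markers of Socs3-rich cell types were set beside this difference. The 9 monocyte markers summed to 358 CPM in WT and 430 in Mgl2DTR in cluster 0, 395 and 472 CPM in cluster 11, and 570 and 778 CPM in cluster 13. The 9 cDC2 markers summed to between 25.7 and 70.7 CPM in these clusters, and the 10 neutrophil markers to 452 and 916 CPM in cluster 13 but to 269 and 272 CPM in cluster 0. None of the 9 monocyte markers was at 0 in clusters 0 and 11. Without cells that held markers of another lineage, the Socs3 ratios were 2.10, 3.32 and 4.01 in clusters 0, 11 and 13.

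Neutrophil-like cells also had more Socs3 in Mgl2DTR, within each of their 2 large clusters. In the immature cluster 16 it was 7.61 CPM in WT and 25.6 in Mgl2DTR, a ratio of 3.37 (2.00 to 5.96). Median depth there was 5932 UMIs in WT and 13066 in Mgl2DTR. The ratio was 2.13 without cells holding markers of another lineage and 2.20 with each cell weighted equally, both still called. With equal weighting the call used the interval of the summed counts. A Socs3 UMI was present after thinning in 2.20% of WT and 9.66% of Mgl2DTR cells of that cluster. In the mature cluster 10 Socs3 was 211 and 316 CPM, a ratio of 1.501 (1.12 to 2.05), and this call was lost under 4 of 5 alternatives, with a lowest ratio of 1.31. Basophil or mast cell markers in cluster 10 summed to 665 CPM in WT and 33.6 in Mgl2DTR, and their part in the ratio was not tested. Over the class the ratio was 2.80 (2.18 to 3.65), but 245 of 393 WT cells were in cluster 16 and 644 of 948 Mgl2DTR cells in cluster 10. Monocyte markers in cluster 16 summed to 5195 CPM in WT and 5585 in Mgl2DTR. That list includes Chil3, one of the 10 genes that most set cluster 16 itself apart by fold.

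The remaining Socs3 calls were in activated DC-like cluster 4, at 16.7 and 31.0 CPM (ratio 1.86, 1.34 to 2.57), and in the B cell gene cluster 25, at 21.5 and 38.3 CPM (1.78, 1.05 to 3.05). In cluster 4 the ratio was 1.48 without called doublets and 1.47 with each cell weighted equally, and both ended the call. In cluster 25, where 51.1% of cells were called doublets, neutrophil markers summed to 762 CPM in WT and 7939 in Mgl2DTR, and their part in the Socs3 ratio was not tested. In the cell types with the most Socs3 apart from mature neutrophils, ratios were near 1: 1.19 (1.05 to 1.36) in monocyte-like cluster 6, 0.902 (0.756 to 1.07) in macrophage-like cluster 3 and 0.875 (0.701 to 1.08) in cDC2-like cluster 15.

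Cish was higher in 4 clusters, all from few UMIs. In cluster 1, T cells, it was 20.4 CPM in WT and 34.3 in Mgl2DTR, a ratio of 1.68 (1.16 to 2.41) from 100 and 45 UMIs. Activated DC markers in that cluster summed to 575 and 1008 CPM, and the call was lost after thinning and, at a ratio of 1.495, among cells with at least 500 genes and under 5% mitochondrial UMIs. In cDC1-like cluster 0 Cish was 2.70 and 4.34 CPM, a ratio of 1.61 (1.08 to 2.38). pDC-like cells had nearly the same Cish levels as cDC1-like cells in both genotypes, 2.12 and 3.55 CPM against 2.07 and 3.66 CPM. Thinned shares in cDC1-like cells were 0.321% and 0.838%. Background RNA was not measured, so levels this low show neither presence nor absence of Cish expression in these cells. Activated DC-like cluster 4 had 5.98 and 11.7 CPM (1.95, 1.12 to 3.36), and cluster 14 had 8.59 and 20.9 CPM (2.43, 1.12 to 4.85) from 39 and 11 UMIs. In cluster 14, 5.12% of WT and 20.3% of Mgl2DTR cells were called doublets and NK or ILC markers summed to 228 and 507 CPM, and their part in the ratio was not tested.

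Where Cish was most abundant it did not pass the rule. In cDC2-like cluster 15 the ratio was 0.956 (0.702 to 1.28), in mature neutrophil-like cluster 10 it was 0.771 (0.482 to 1.28), and in NK or ILC-like cluster 21 it was 1.40 (0.821 to 2.45). The intervals of the last 2 span both no change and a 1.5-fold change. The basophil or mast cell markers of cluster 10, at 665 CPM in WT and 33.6 in Mgl2DTR, were not tested for a part in its ratio.

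Socs1 was lower in Mgl2DTR in macrophage-like, monocyte-like and immature neutrophil-like cells. In macrophage-like cluster 3, marked by C1qa and Vcam1, it was 33.3 CPM in WT and 18.6 in Mgl2DTR, a ratio of 0.558 (0.392 to 0.777). Median depth there was 10924 and 4950 UMIs, activated DC markers summed to 779 and 509 CPM and T cell markers to 292 and 236 CPM; without cells holding markers of another lineage the ratio was 0.443. In monocyte-like cluster 6 Socs1 was 34.6 and 20.7 CPM, a ratio of 0.599 (0.439 to 0.818). T cell markers in cluster 6 summed to 164 and 58.0 CPM and neutrophil markers to 800 and 12760 CPM, and the ratio was 0.817 without cells holding markers of another lineage and 0.719 with each cell weighted equally, and not called in either. In immature neutrophil-like cluster 16 Socs1 was 16.1 and 9.06 CPM (0.564, 0.336 to 0.939), a call lost without called doublets.

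Of the unnamed clusters, 7 and 25 had less Socs1 in Mgl2DTR. Cluster 7, cycling cells with Ifitm1, had 31.2 and 17.1 CPM (0.549, 0.424 to 0.707), and 14.6% of its measured genes were called lower. With each cell weighted equally the ratio there was 0.694, which ended the call. T cell markers in cluster 7 summed to 401 CPM in WT and 81.8 in Mgl2DTR, cDC2 markers to 1295 and 158 CPM and monocyte markers to 1398 and 2984 CPM, and their part in the ratio was not tested. Cluster 25 had 46.4 and 25.2 CPM (0.543, 0.325 to 0.885). In lymphoid cells the Socs1 ratios were 1.07 in T cell cluster 1, 1.21 (0.858 to 1.72) in NK or ILC-like cluster 21 and 0.834 (0.566 to 1.23) in B cell-like cluster 20, and in activated DC-like clusters 4, 5 and 8 they were 1.22 to 1.38. None of these passed the rule.

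The 4 Socs2 calls lay outside the activated DC-like clusters. In the Cd209d-bearing cDC2-like cluster 18 it was 13.8 CPM in WT and 27.0 in Mgl2DTR, a ratio of 1.96 (1.17 to 3.19) from 56 and 25 UMIs. Activated DC markers in that cluster summed to 1085 and 952 CPM. In immature neutrophil-like cluster 16 Socs2 was 35.9 and 9.69 CPM, a ratio of 0.270 (0.173 to 0.411). There 6.12% of WT and 5.71% of Mgl2DTR cells had a Socs2 UMI, 1 cell held 18.8% and 45.2% of the UMIs, and activated DC markers summed to 733 and 350 CPM. Cluster 7 had 12.3 and 7.19 CPM (0.583, 0.386 to 0.871) and cluster 25 had 86.9 and 28.2 CPM (0.325, 0.206 to 0.496), and activated DC markers summed to 548 and 183 CPM in cluster 7 and to 1223 and 1041 CPM in cluster 25. Their part in these ratios was not tested. The call in cluster 7 was lost with each cell weighted equally (0.889) and without cells of low hashtag margin (0.732).

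**Figure D4:**
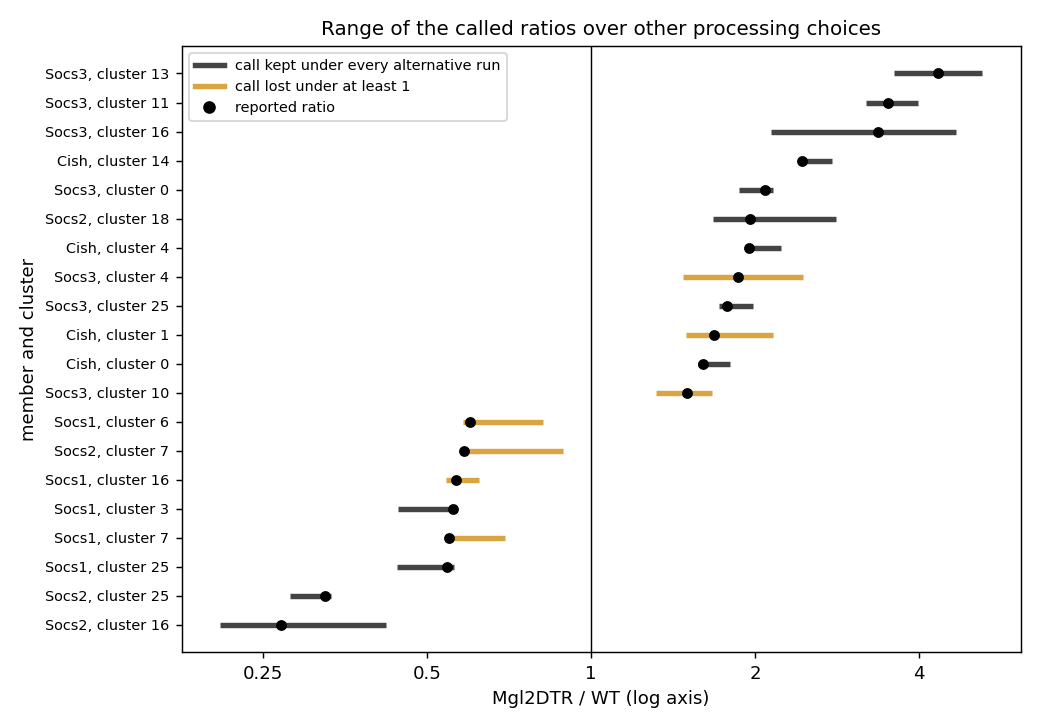
Range of each called Mgl2DTR to WT ratio, on a log axis, over the other processing choices that could measure it, with the reported ratio as a black point. Grey bars kept the call under every choice run and yellow bars lost it under at least 1; the Socs3 ratio in cDC1-like cluster 13 ranges from 3.60 to 5.23 and none of the bars crosses 1.

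Few cells held UMIs of 2 or more members after thinning, a share limited by how often each member was detected at that depth. After thinning, 59.0% of 1422 WT activated DC-like cells had a UMI of at least 1 of the 4 members, 7.95% of at least 2 and 0.281% of at least 3. Socs1 and Socs2 were together in 76 of these cells, and Socs2 was found in 56.3% of cells with Socs1 and 51.1% of cells without. Socs3 was in 2.72% of WT activated DC-like cells with Socs2 and in 4.51% of those without; in Mgl2DTR these shares were 2.78% and 6.65%. In monocyte-like cells 26.0% of WT and 30.2% of Mgl2DTR cells had at least 1 member. There Socs3 was in 43.5% of the 23 Mgl2DTR cells with Socs1 and in 22.3% of those without. In WT these shares were 16.7% and 17.8%. In neutrophil-like cells Cish was in 10.0% of the 100 Mgl2DTR cells with Socs3 and in 3.70% of those without. The WT shares were 0% of 11 cells and 4.18%. These shares describe 1 set of cells per genotype and depend on the fixed depth.

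Across 33 WT clusters the levels of Socs3 and Cish had a Pearson r of 0.562 on a log2 scale with 10 CPM added, and those of Socs1 and Socs2 0.337; the other pairs lay between -0.12 and 0.15. The clusters share 1 library and differ in depth, so this is a description. Among 9721 genes, the 5 most like Socs2 were Nudt17 (r = 0.976), Cacnb3 (0.960), Lad1, Stap2 and Tmem19, of which Cacnb3 is also one of the activated DC markers used for naming. Those most like Socs1 were Tcf7 (0.809), a T cell transcription factor, Smarcd1, Kdm5b, Nipsnap1 and Colq. Those most like Socs3 were Slc15a3 (0.863), Wfdc17, Fcer1g, Clec4n and Sirpa, genes of myeloid cells. Those most like Cish were the AP-1 gene Junb (0.850), Gcnt1, Wipf1, Dusp1 and Fosl2.

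The other SOCS genes were higher in 1 (1.82%) and lower in 3 (5.45%) of 55 pairs, where 4.6% and 4.27% of all pairs were. Socs4 was lower in 1 of 18 measured clusters, Socs5 lower in 1 of 6, Socs6 higher in 1 and lower in 1 of 16, and Socs7 was called in 0 of 15. Socs4 lay between 18.2 and 32.3 CPM over the 18 measured clusters in WT. Socs6 was 53.4 CPM in WT monocyte-like cluster 6 and 40.9 CPM in macrophage-like cluster 3. The 7 partners of the SOCS box in the ubiquitin ligase (Elob, Eloc, Cul5, Rnf7, Rbx1, Ube2f and Nedd8) were higher in 1 and lower in 0 of 164 gene and cluster pairs. These shares were 0.610% and 0%, against the same 4.6% and 4.27% of all pairs.

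Upstream of the members, the 11 JAK and STAT genes were higher in 8 and lower in 16 of 223 pairs, 3.59% and 7.17% against 4.6% and 4.27% of all pairs. Jak2, the kinase of many type I cytokine and interferon gamma receptors, was lower in 5 of 23 clusters and higher in 0. Those were clusters 3, 6, 7, 16 and 22. In macrophage-like cluster 3 Jak2 was 88.0 CPM in WT and 52.7 in Mgl2DTR (ratio 0.599), and in monocyte-like cluster 6 it was 102 and 65.3 CPM (0.639). Stat2 was lower in 5 of 22 clusters, and Jak3, the kinase of the common gamma chain, was higher in 3 of 9.

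Receptors were higher in 40 (8.87%) and lower in 25 (5.54%) of 451 pairs, against 4.6% and 4.27% of all pairs. Cluster 25, where 51.1% of cells were called doublets, gave 7 higher pairs of 14, and 9.60% of all its measured genes were higher. Cluster 7 gave 8 lower pairs of 22, and 14.6% of all its measured genes were lower. Il4ra, the interleukin 4 and interleukin 13 receptor chain, was higher in 6 of 18 clusters and lower in 0, and in monocyte-like cluster 6 it was 34.6 CPM in WT and 59.9 in Mgl2DTR (1.73, 1.34 to 2.24). Flt3, the receptor for the DC growth factor Flt3 ligand, was lower in 5 of 21 and higher in 1. Of 53 ligand pairs 10 (18.9%) were higher and 5 (9.43%) lower. Il12b, which encodes a subunit of interleukin 12, was higher in 5 and lower in 2 of 14 clusters. In cDC1-like cluster 0 Il12b was 6.94 and 14.4 CPM (2.07, 1.65 to 2.60).

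Other brakes on the pathway were higher in 20 (7.55%) and lower in 10 (3.77%) of 265 pairs, against 4.6% and 4.27% of all pairs. Ptpn1, a tyrosine phosphatase that removes phosphate from JAK2 and TYK2, was higher in 7 of 25 clusters and lower in 0. These included all 3 cDC1-like clusters in which Socs3 was higher: in cluster 0 Ptpn1 was 46.0 CPM in WT and 79.2 in Mgl2DTR (1.72, 1.57 to 1.88), and the ratios were 1.81 in cluster 11 and 1.98 in cluster 13. Usp18, a brake on type I interferon signalling, was higher in 2 and lower in 5 of 22 clusters.

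STAT target genes other than SOCS were called often in both directions, higher in 66 (17.7%) and lower in 48 (12.9%) of 373 pairs. Of all pairs, 4.6% were higher and 4.27% lower. Cluster 25 gave 11 higher pairs of 16, and 9.60% of all its measured genes were higher. Cluster 7 gave 9 lower pairs of 20, and 14.6% of all its measured genes were lower. Cxcl10, an interferon-induced chemokine gene, was higher in 6 and lower in 6 of 16 clusters. The chemokine gene Cxcl9 was higher in 3 and lower in 8 of 18 clusters, and in macrophage-like cluster 3, where Socs1 was lower, it was 233 and 132 CPM (0.567, 0.50 to 0.642). The type 2 chemokine genes Ccl22 and Ccl17 were lower in 7 of 22 and 6 of 14 and higher in 2 and 3. Pim1, a kinase gene induced by STAT3 and STAT5 and named here after its values were seen, was higher in 8 of 25 clusters and lower in 0. In neutrophil-like cluster 10 Pim1 was 1482 CPM in WT and 3133 in Mgl2DTR (2.11, 1.90 to 2.36). In the cDC1-like clusters, 0 of 18 measured STAT targets were called in cluster 0, where 1.49% of all measured genes were higher and 1.36% lower. In cluster 11 Cxcl10 and Ccl17 were higher of 15 measured, and in cluster 13 Bcl2l1 was higher and Myc lower of 13.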

How the data were processed

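The deposited files hold whole-number UMI counts per gene and cell, made by the authors from a 3′ single-cell library (Cell Ranger 6.0.0, Seurat 4.0.4 and build mm10, per the submitters' processing notes); the sources used here do not name the gene annotation. Each cell's genotype is the hashtag call in the authors' deposited annotation, whose hashtag margin is a score per cell; 8 of its 11 columns were not used. Cells were scaled to 10000 counts, and 2000 variable genes, 30 principal components, 20 neighbours and Leiden clustering at resolution 1 (leidenalg 0.10.2, seed 1) gave clusters, named from marker lists where at least 3 markers were raised. Doublets were called where at least 25 of 50 nearest neighbours carried 2 hashtags (1168 WT and 674 Mgl2DTR cells), and stayed in unless stated; clusters with over 50% of them stayed unnamed, a limit set after seeing the data. Counts were summed per cluster and genotype. Intervals are exact, from the Poisson, binomial and conditional binomial distributions (scipy 1.17.1). From each pathway list, up to 4 genes called in the most clusters are named, and any gene that another value turns on; likeness is the 5 genes of highest Pearson r over WT clusters of at least 50 cells. Members and lists were chosen with earlier results of these data known. The ratio calculation was checked on simulated counts. Alternatives changed doublets, depth, weighting, filters, resolution, variable genes, scaling and call limits. Equal weighting changed the ratio only, and its calls kept the interval of the summed counts.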

Additional observations from a re-analysis of the deposited data

Results flagged for a closer look

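Socs2 went in opposite directions in different clusters: its Mgl2DTR to WT ratio was 1.96 in cDC2-like cluster 18, and 0.583 in the cycling cluster 7, 0.270 in immature neutrophil-like cluster 16 and 0.325 in the B cell gene cluster 25. The difference between these clusters was not tested, since each genotype is 1 set of cells without replicates. Leaving cells of low hashtag margin out moved the ratio to 2.82 in cluster 18 and 0.208 in cluster 16, and to 0.732 in cluster 7, where the call was lost.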

How the results depend on the processing

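None of the 20 called ratios changed side under any alternative run, and 13 of 20 kept their call in all of theirs. Socs2 in WT activated DC-like cells was 435 CPM without called doublets, 489 CPM thinned, 480 CPM with cells weighted equally, 436 CPM without cells holding other types' markers and 472 CPM at resolution 0.5. Socs3 in WT monocyte-like cells was 132 CPM without cells holding other types' markers. Cish in WT cDC2-like cells was 24.1 CPM thinned. Neutrophil-like cells were highest in Cish when thinned and with equal weighting, and NK or ILC-like cells without cells holding other types' markers and at resolution 0.5. T cell or thymocyte-like cells were highest in Socs1 without called doublets, thinned, with equal weighting and without cells holding other types' markers.

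Clusters called higher in Mgl2DTR numbered as follows. Thinned to 2000 UMIs, the numbers were 1 for Socs1, 0 for Socs2, 0 for Socs3 and 0 for Cish, and lower calls were 0 for Socs1 and 0 for Socs2. Without called doublets, 4 clusters were higher for Socs3 and 2 for Cish, and 3 were lower for Socs1 and 1 for Socs3. At a ratio of at least 2, 0 were higher for Socs2, 4 for Socs3 and 1 for Cish, and 0 were lower for Socs1. At 100 or more UMIs, 0 were higher for Socs2 and 2 for Cish, and 3 were lower for Socs1. At resolution 0.5, 4 were higher for Socs3. With at least 500 genes and under 5% mitochondrial UMIs, 2 were higher for Cish and 1 was lower for Socs3. Socs3 was also lower in 1 cluster without cells holding other types' markers and in 1 when scaled to the median ratio. That cluster was activated DC-like cluster 8 under each of these 4 settings.

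Equal weighting moved the Socs2 ratio to 0.889 in cluster 7, which ended its call, and to 0.421 in cluster 16. Thinning left too few UMIs or cells in most clusters, so differences below 50 UMIs were not detectable at this depth. Of 32 levels recomputed, 25 stayed within the interval, and of 96 counts, 74 stayed within 1.5 times. The cause of the moves was not tested. With 1 set of cells per genotype, no alternative stands in for other mice.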
